A study of Mus musculus with 6 samples.

Results

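Dab2, 4 adaptor and scaffold genes related to it (Dab1, Dab2ip, Numb and Numbl), 2 genes for cargo receptors that it serves (Lrp2 and Cubn) and Myo6, the gene of its motor partner, were followed in RNA of sorted hair follicle stem cells (HFSCs). The genes were taken by name and gave 8 of the 56941 rows of the count table. All 8 were among the 32149 genes with enough counts to be tested. Total RNA of sorted HFSCs was sequenced from female mice of the strain B6;129S4-Dab2tm1Cpr/J at postnatal day (PD) 68, as 3 WT and 3 Dab2-cKO biological replicates by their labels. Both genotypes carried 2 floxed Dab2 alleles (Dab2 fl/fl) and received tamoxifen into the peritoneum at 75 mg/kg per day on 5 successive days. K14CreER was present in the Dab2-cKO mice alone. It is a Cre that tamoxifen activates and that the keratin 14 promoter drives. Recombination is thus directed at keratinocytes, and where it took place was not measured in these libraries. Cells of the dorsal skin were sorted for CD34 and α6-integrin, the surface markers of the bulge. Whether a library came from 1 mouse or from several is not given in the sources used here, and p-values measure the spread between these libraries.

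Dab2 is a cytosolic adaptor of clathrin-mediated endocytosis. Its phosphotyrosine-binding (PTB) domain holds the tails of receptors of the LDL receptor family, and its other parts bind clathrin, the AP-2 complex and EH-domain proteins. The motor protein myosin VI, encoded by Myo6, binds Dab2 and moves coated vesicles toward the minus end of actin filaments. Megalin (Lrp2) and cubilin (Cubn) are large receptors that take up proteins and vitamins in kidney and yolk sac with the help of Dab2. Dab1, Numb and Numbl share the PTB domain, and Dab2ip binds Dab2 and acts as a Ras GTPase-activating protein. In the skin Dab2 is also found in dermal cells and macrophages.

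The stretches before the transcription starts are shown first, since the members differed both in level and in direction of change. RefSeq starts on GRCm38.p6 were matched for 8 of the 8 genes and gave 15 windows of 200 bases, from 250 to 51 bases before each start. The counts themselves were made on GRCm39, and the coordinates of the windows are not those of the count table. Printed are the first start of Dab2 and the windows of Lrp2, Cubn, Numbl and Myo6, which have 1 listed start each and no annotated exon in the window. Letters are written 5′ to 3′ on the strand of the gene, and capitals mark matches to the motifs searched.
Dab2 (chr15:6299539-6299738, plus strand): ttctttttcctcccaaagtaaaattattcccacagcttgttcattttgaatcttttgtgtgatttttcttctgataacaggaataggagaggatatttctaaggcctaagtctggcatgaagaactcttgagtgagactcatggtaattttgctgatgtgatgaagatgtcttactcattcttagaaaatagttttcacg
Lrp2 (chr2:69586080-69586279, minus strand): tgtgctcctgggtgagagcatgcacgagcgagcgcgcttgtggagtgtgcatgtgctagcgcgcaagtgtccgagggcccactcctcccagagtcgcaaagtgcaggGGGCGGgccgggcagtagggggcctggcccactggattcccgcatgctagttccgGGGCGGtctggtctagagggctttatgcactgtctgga
Cubn (chr2:13491927-13492126, minus strand): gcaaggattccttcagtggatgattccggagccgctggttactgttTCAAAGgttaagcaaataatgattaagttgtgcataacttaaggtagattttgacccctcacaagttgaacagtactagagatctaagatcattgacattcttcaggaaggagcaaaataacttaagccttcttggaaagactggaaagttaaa
Numbl (chr7:27258511-27258710, plus strand): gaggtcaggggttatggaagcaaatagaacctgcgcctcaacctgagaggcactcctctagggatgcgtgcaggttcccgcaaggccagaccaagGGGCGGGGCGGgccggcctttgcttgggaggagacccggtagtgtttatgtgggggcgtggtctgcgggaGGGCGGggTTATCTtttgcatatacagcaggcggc
Myo6 (chr9:80164784-80164983, plus strand): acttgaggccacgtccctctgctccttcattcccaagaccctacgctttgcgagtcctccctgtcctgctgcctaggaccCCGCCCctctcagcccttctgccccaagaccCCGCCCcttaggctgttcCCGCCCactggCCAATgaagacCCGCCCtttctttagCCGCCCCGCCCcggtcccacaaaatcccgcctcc
Motifs were searched on both strands. GGGCGG is the box bound by Sp1 and KLF factors, CCAAT is bound by NF-Y, and TATAAA is the core promoter element. AP-1 was searched as TGANTCA. TCF/LEF factors were searched as CTTTGA and, in a second form of their site, as CTTTGT. For the GATA factors the letters were AGATAA. None of them contains another, but matches can share bases, as 2 of the 3 GC boxes of Numbl do. GGGCGG was present in 24.6% of all 32841 windows, CCAAT in 28.4%, TATAAA in 9.14%, CTTTGA in 11.8%, CTTTGT in 13.6% and AGATAA in 8.42%. TGANTCA was the rarest, at 5.58%. The first window of Dab2 held none of the 7 motifs, 35% G and C, and 1 CpG, against a median of 4 CpG over all windows. That of Cubn was similarly poor, with 38.5% G and C, 2 CpG and 1 CTTTGA match. The window of Myo6 held 6 GC boxes and 1 CCAAT box with 11 CpG, that of Numbl 3 GC boxes and 1 AGATAA match with 11 CpG, and that of Lrp2 2 GC boxes with 13 CpG. The second start of Dab2 lay in a richer window with 61% G and C and 15 CpG, and no match there either. All 200 bases of that window lie in annotated exons of Dab2. These letters describe the windows only, and no binding was measured.

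The libraries held 7040032 to 9518564 counts in those labelled WT and 9374373 to 11696457 in those labelled Dab2-cKO. The limit that a count of 0 allows (3 counts, counting error only) was 2.57e-05% to 4.26e-05% of a library's total, and every member had over 100 counts in every library. Composition differed with the label: 33.1% to 33.9% of the counts labelled WT fell on the top 100 genes, and 44.5% to 46.6% of those labelled Dab2-cKO. For mitochondrial genes these shares were 13.0% to 14.4% and 19.1% to 20.3%, in the same order. The TMM factors, which correct for such composition, were 1.11 to 1.21 for WT and 0.847 to 0.876 for Dab2-cKO. Normalized counts given here are counts divided by the library size times this factor, brought to the mean of these sizes. Without the factors the median log2 fold change of all genes tested moved from -0.02 to -0.45, and with upper-quartile scaling to -0.17, so a change close to these shifts depends on the scaling.

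Dab2 (ENSMUSG00000022150) spans 6329269 to 6470196 on the plus strand of chromosome 15 of GRCm39. As the targeted gene it checks the labels. The deposited counts of Dab2 in the order of the replicate numbers were 304, 368 and 362 for WT, and 1504, 1130 and 1259 for Dab2-cKO. After normalization these were 338, 332 and 309 against 1434, 1300 and 1390. Every library labelled Dab2-cKO was above every library labelled WT, with a wide gap, and the spread inside each group was small. The means were 327 ± 15.4 (SD, n = 3) and 1375 ± 68.2 (SD, n = 3). The log2 fold change of 2.08 (SE, the standard error of the fit, 0.08, edgeR adjusted p = 3.04e-34) lay above that of 99.0% of all genes tested and of 97.8% of those that averaged 100 or more. An exact 2-sided permutation test of the 6 values gave p = 0.1, the smallest that 3 against 3 allow. The level of the targeted gene thus went against the label Dab2-cKO, and all groups are named here as the libraries are labelled. Gene-level counts include transcripts that lack the deleted exon as well as intact ones. The columns of the count table read WT and FL-FL, and since both genotypes carry floxed alleles, FL-FL was taken as Dab2-cKO from the title the authors gave the series, on which every direction rests.

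Of the 8 genes, 4 were higher in the libraries labelled Dab2-cKO (Dab2, Dab1, Numbl and Dab2ip, the last of which turned lower with scaling by library size alone), 3 were lower (Numb, Lrp2 and Myo6), and Cubn did not pass the test. The test was edgeR's quasi-likelihood test with an adjusted p under 0.05, which called 28.2% of all genes tested and 60.5% of the 10846 genes whose normalized counts averaged 100 or more, the range in which all 8 lie. Of all genes tested 16.8% were called higher and 11.5% lower, and in that range 37.6% and 22.8%. The groups of libraries did not overlap for 7 of the 8 genes, against 38.3% of all genes tested and 67.8% of those in that range. The 7 calls among 8 genes stood above these shares, but 8 genes are too few to set them apart from the background. The median log2 fold change of the 8 genes was 0.03 against -0.02 for all genes tested. The sizes ran from a rise of 4.21-fold for Dab2 to a level 1.51-fold higher in WT for Myo6.

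**Figure D1:**
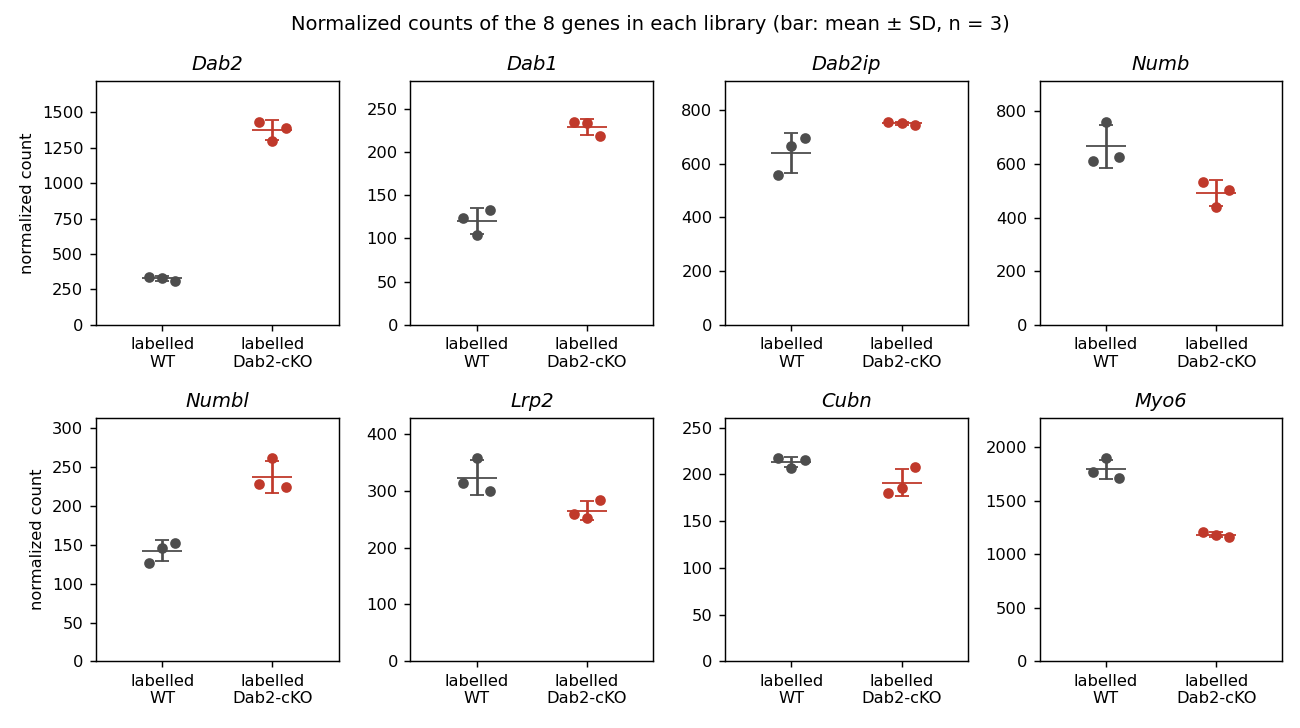
Normalized counts (vertical axis, from 0) of the 8 genes in the 3 libraries labelled WT (grey) and the 3 labelled Dab2-cKO (red), each point a library and each bar the mean ± SD. Dab2 stands between 309 and 338 in WT and between 1300 and 1434 in Dab2-cKO, whereas the groups of Cubn overlap and those of Dab2ip lie close together.

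The markers of the sorted population were compared between the groups. The purity of the sort was not tested here. Fibroblast and skeletal muscle markers were abundant in both groups, as were hair shaft and inner root sheath markers in WT, with sums given below. Col1a1 averaged 46086 normalized counts in WT and 135934 in Dab2-cKO, against 6378 and 11472 for Krt14, without correction for length. Of 8 bulge and basal keratinocyte markers, 6 were higher in the libraries labelled Dab2-cKO and 2 were lower. Cd34, which marks the bulge and was used in the sort, had normalized counts of 455, 562 and 514 in WT and 1755, 1820 and 1764 in Dab2-cKO (log2 fold change 1.80, edgeR adjusted p = 9.12e-32). Itga6, the α6-integrin of the sort, rose by 0.55 on the log2 scale (SE 0.07) and Krt14, whose promoter drives the Cre, by 0.85 (SE 0.07), although Itga6 was not called with library size alone (edgeR adjusted p = 0.0756). The transcription factors of the bulge moved apart. Lhx2 and Sox9 fell by 1.43 and 1.45 on the same scale, whereas Nfatc1 rose by 1.32, from 230 ± 3.63 to 575 ± 31.1 (SD, n = 3, edgeR adjusted p = 1.76e-19). The keratins Krt15 and Krt5 rose by 0.84 and 0.62. No marker of these or of the other cell types was at 0.

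Markers of fibroblasts, macrophages, endothelial cells and several further cell types were higher in the libraries labelled Dab2-cKO, as Dab2 was. All 7 fibroblast markers were higher in the libraries labelled Dab2-cKO, and their summed normalized counts were 101858 to 123237 in WT and 355925 to 375671 in Dab2-cKO, a ratio of 3.24. The 10 macrophage and Langerhans cell markers were all higher as well, with sums of 1586 to 1666 and 7955 to 8304 and a ratio of 4.98. Blood endothelial markers (7 of 7 higher, 1127 to 1333 against 4345 to 4374) gave a ratio of 3.46 and lymphatic endothelial markers (4 of 4 higher, 383 to 441 against 964 to 988) a ratio of 2.36. The ratio of Dab2 was 4.21, and those of these 4 lists spread widely, from 2.36 to 4.98. Skeletal muscle markers (6 of 6 higher, 24287 to 28302 against 137845 to 140058) and erythrocyte markers (5 of 5 higher, 244 to 274 against 1467 to 1601) rose further, with ratios of 5.28 and 5.85. Adipocyte markers were higher for 4 genes and lower for 1 (2976 to 3283 against 6492 to 6543), and of 5 T cell markers 1 was higher (209 to 255 against 328 to 390). The part of these cell types in the Dab2 result was not tested. In bulk RNA, a different number of cells of a type and a different amount of RNA per cell cannot be told apart.

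Other markers, among them those of melanocytes, moved the opposite way. All 13 hair shaft and inner root sheath markers analysed were lower in the libraries labelled Dab2-cKO (summed normalized counts 230212 to 276489 in WT, 3270 to 3328 in Dab2-cKO), as were all 10 proliferation markers (10623 to 11596 against 3158 to 3256) and all 7 melanocyte markers (3556 to 3918 against 1252 to 1284). The sum of the bulge and basal keratinocyte markers was 18479 to 21175 in WT and 32348 to 33313 in Dab2-cKO, a ratio of 1.65, less than that of Dab2. This sum mostly follows the abundant keratins Krt5, Krt14 and Krt15. The single genes ran from a rise of 1.80 on the log2 scale for Cd34 to a fall of 1.45 for Sox9.

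**Figure D2:**
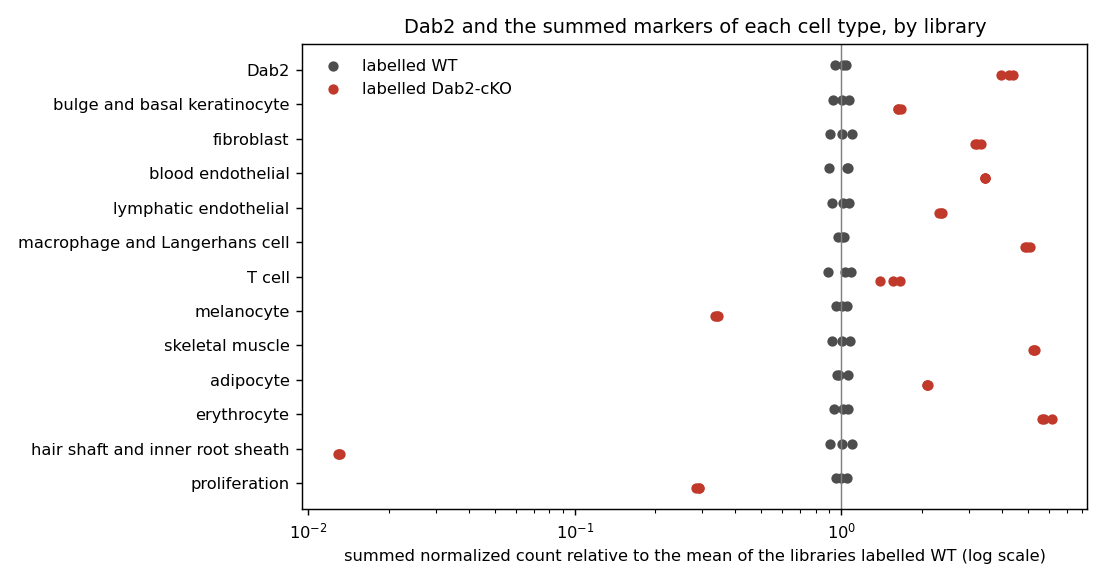
Normalized count of Dab2 and summed normalized counts of 12 marker lists in each library, relative to the mean of the 3 libraries labelled WT (log axis, grey for WT and red for Dab2-cKO, each point a library). Dab2 at 4.21 times the WT mean lies between the blood endothelial and the macrophage markers, below the skeletal muscle and erythrocyte markers. The hair shaft markers lie far below 1.

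Genes with the most similar pattern to Dab2 were sought among 10845 other genes averaging 100 or more normalized counts, by the root mean square difference of the log2 normalized counts over the 6 libraries after centring each gene. The nearest was Lmod3, a leiomodin of muscle thin filaments, at 0.0351, with normalized counts of 92.4, 96.6 and 86.3 in WT and 401, 361 and 374 in Dab2-cKO. Next were Sdr16c6, a short-chain dehydrogenase, at 0.0437 and Clca3a2 at 0.0503. In all, 113 genes lay within 0.15 of Dab2. Among the members Dab1 was the nearest at 0.586, then Numbl at 0.683, Dab2ip at 0.928, Cubn at 1.12, Lrp2 at 1.18, Numb at 1.26 and Myo6 at 1.34. No member lay close to Dab2 by this distance, which counts the size of the change as well as its direction. Dab1 and Numbl also rose without overlap, by 0.93 and 0.73 on the log2 scale.

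The genes around Dab2 in endocytosis and signaling were counted from lists drawn up by their known function. Of 21 endocytic partners (clathrin, AP-2 subunits, early coat proteins and EHD ATPases), 13 were higher in the libraries labelled Dab2-cKO, 1 was lower and 7 were not called, with a median log2 fold change of 0.45. The split was 11 higher and 4 lower with upper-quartile scaling, and 7 higher and 9 lower with library size alone. Ehd2 and Ehd4, ATPases that shape membranes at caveolae and on the recycling route, had the largest rises, of 1.44 (SE 0.08) and 1.34 (SE 0.08) on the log2 scale. Ehd2 had normalized counts of 498, 570 and 487 in WT and 1415, 1401 and 1398 in Dab2-cKO. Hip1r, which links clathrin coats to actin, fell by 0.81 on the log2 scale (from 1079 ± 93.1 to 616 ± 12.6, SD, n = 3). The part in these values of the cell types whose markers moved was not tested.

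Of 16 signaling partners of Dab2, 4 were higher and 5 lower, with a median of -0.01. With upper-quartile scaling 4 were higher and 7 lower (median -0.15), and with library size alone 3 and 11 (median -0.43). Tgfbr2, the type II receptor of TGF-β, which recruits Dab2, rose by 1.62 on the log2 scale, from 629 ± 86.5 to 1932 ± 46.1 (SD, n = 3). Itgb1, the β1-integrin whose uptake Dab2 assists, rose by 0.83. Cdk1, the mitotic kinase that phosphorylates Dab2, fell by 1.21 and is also one of the 10 proliferation markers. Lrp6, the Wnt coreceptor, fell by 0.48 (SE 0.07), from 2147 ± 106 to 1541 ± 37.4 (SD, n = 3). The edgeR adjusted p-values of these 4 genes were 4.37e-29, 7.61e-17, 8.59e-13 and 2.91e-08.

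Dab1 (ENSMUSG00000028519, chromosome 4, 103476556 to 104602041) is the adaptor of the reelin receptors in neurons. Its counts were 111, 115 and 156 in WT and 247, 203 and 198 in Dab2-cKO. As normalized counts these were 124, 104 and 133 against 236, 234 and 219, with no overlap between the groups. Dab1 rose 1.91-fold, a log2 fold change of 0.93 (SE 0.13, edgeR adjusted p = 2.26e-08). The level in WT was low. Per kb of exon it was 11.8 ± 1.48 (SD, n = 3), under the 95th percentile of 12.4 among 1521 genes for olfactory, vomeronasal and trace amine receptors, which skin should lack. In Dab2-cKO it was 22.6 ± 0.92 against 11.8 for the same percentile. By the longest transcript the levels were 21.5 in WT and 41.1 in Dab2-cKO, above the percentile of 12.5 and 11.9. No annotated exon of another gene overlaps those of Dab1.

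Of 12 genes of the reelin pathway 4 were higher, 1 was lower and 7 were not called, with a median log2 fold change of -0.02. The split was 3 higher and 4 lower with upper-quartile scaling, and 3 higher and 9 lower with library size alone (median -0.44). The receptors of reelin moved apart. Vldlr rose by 1.13 on the log2 scale, from 205, 158 and 173 normalized counts in WT to 352, 420 and 396 in Dab2-cKO (edgeR adjusted p = 1.54e-13). Lrp8 fell by 0.75, from 203, 209 and 215 to 120, 128 and 125 (edgeR adjusted p = 3.75e-06). Pik3r1, the regulatory subunit of PI3 kinase, rose by 1.32. The Src-family kinases Fyn, Src and Yes1, which phosphorylate Dab1, were not called (log2 fold changes of -0.0046, -0.19 and -0.05).

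Numb (ENSMUSG00000021224, chromosome 12, 83840808 to 83968997, minus strand) is an endocytic adaptor that restrains Notch. It had counts of 552, 842 and 736 in WT and 562, 383 and 458 in Dab2-cKO. The normalized counts were 615, 760 and 629 against 536, 441 and 505, so that all libraries labelled Dab2-cKO were lower. Its log2 difference was -0.43 (SE 0.09, edgeR adjusted p = 3.56e-05). Exons of genes on the opposite strand cover 32.2% of the exon bases of Numb, of which Papln alone covers 27.4%. Papln rose by 0.54 on the log2 scale (edgeR adjusted p = 0.00068), from 150 to 219 normalized counts on average, and was not called with library size alone (0.12 on the log2 scale, edgeR adjusted p = 0.476). The libraries were made with a stranded kit, but the strand setting of the counting is not given in the sources used here, and the value of Numb is uncertain to that extent.

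Numbl (ENSMUSG00000063160, chromosome 7, 26957858 to 26981580), the paralog of Numb, moved the other way. Counts of 114, 162 and 179 in WT and 239, 227 and 203 in Dab2-cKO gave normalized counts of 127, 146 and 153 against 228, 261 and 224, without overlap. The log2 difference was 0.73 (SE 0.13, edgeR adjusted p = 2.34e-06). Summed normalized counts of the pair are not given, since how reads shared by paralogs were counted is not given in the sources used here.

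The partners of Numb and Numbl had the lowest median of the 10 lists, -0.41, with 4 genes higher, 12 lower and 3 not called of 19. Upper-quartile scaling gave 1 higher and 14 lower, and library size alone 0 and 14. Notch1 and Notch2 were among the lower genes with TMM, with log2 fold changes of -0.88 and -0.41. Notch3 was among the higher ones with 0.28, but was not called higher under either of the other 2 scalings. Gli1, the Hedgehog transcription factor that Numb directs to degradation, fell by 1.37, from 367, 507 and 388 normalized counts to 167, 152 and 169 (edgeR adjusted p = 1.61e-16). Pard6b, a subunit of the polarity complex, also fell by 1.37, from 152 ± 13.1 to 58.6 ± 2.99 (SD, n = 3, edgeR adjusted p = 3.88e-10). The largest rises were small: Acbd3, a Golgi partner of Numb, at 0.40 and Mdm2, the ubiquitin ligase of p53, at 0.33, and both were at -0.03 and -0.10 with scaling by library size alone. The Notch genes were picked out after their values were seen.

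Dab2ip (ENSMUSG00000026883, chromosome 2, 35448278 to 35621006) had counts of 501, 739 and 816 in WT and 794, 654 and 675 in Dab2-cKO. Its normalized counts were 558, 667 and 697 against 757, 753 and 745. The groups did not overlap, but replicate 1 labelled WT lay well below the other two. The log2 difference was 0.23 (SE 0.08, edgeR adjusted p = 0.0249) and turned to -0.20 (edgeR adjusted p = 0.0151) with scaling by library size alone. Without replicate 1 labelled WT it was 0.14 (edgeR adjusted p = 0.197), and without replicate 1, 2 or 3 labelled Dab2-cKO it was 0.20, 0.20 and 0.21 (edgeR adjusted p = 0.0898, 0.0882 and 0.0764). The call of Dab2ip thus rested on single libraries and on the scaling.

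Of 16 Ras GTPase-activating proteins and partners of Dab2ip, 3 were higher, 6 lower and 7 not called, with a median of 0.04. Upper-quartile scaling gave 3 higher and 7 lower (median -0.11), and library size alone 3 and 9 (median -0.39). Rasa3 and Rasa4, GTPase-activating proteins recruited to the membrane, rose by 1.43 and 1.13 on the log2 scale. Rasa3 had normalized counts of 292, 339 and 321 in WT and 836, 933 and 802 in Dab2-cKO. Map3k5, the kinase ASK1 that Dab2ip activates, fell by 0.85, and Ezh2, a methyltransferase that silences Dab2ip in tumours, fell by 0.52. The edgeR adjusted p-values of Map3k5 and Ezh2 were 1.63e-12 and 7.16e-07.

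Of 30 other PTB-domain adaptors analysed 14 were higher, 5 lower and 11 not called, with a median log2 fold change of 0.31 (0.165 with upper-quartile scaling). With library size alone 5 were higher and 11 lower, and the median was -0.12. Shc2, an adaptor of receptor tyrosine kinases, rose by 1.82, from 52.3, 55.1 and 53.0 normalized counts to 158, 207 and 204 (edgeR adjusted p = 4.73e-15). Tns2, a tensin of focal adhesions, rose by 1.56, from 295 ± 4.69 to 871 ± 59.1 (SD, n = 3). Dok4, a docking protein of receptor tyrosine kinases, fell by 1.81, from 266 ± 17.2 to 74.6 ± 28.7 (SD, n = 3). Another tensin, Tns4, fell by 0.33. The rise of Dab2 was larger than that of each called gene of this list, as a description of the fold changes.

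Lrp2 (ENSMUSG00000027070, chromosome 2, 69254682 to 69416409, minus strand) had counts of 281, 395 and 350 in WT and 272, 219 and 257 in Dab2-cKO. The normalized counts of 313, 357 and 299 against 259, 252 and 284 did not overlap, although the lowest WT library and the highest Dab2-cKO library were close. The log2 difference was -0.29 (SE 0.11, edgeR adjusted p = 0.0375). Without replicate 2 labelled WT it was -0.20 (edgeR adjusted p = 0.242), and without replicate 1 or 2 labelled Dab2-cKO it was -0.29 and -0.28 (edgeR adjusted p = 0.0738 and 0.0715). DESeq2 did not call it (adjusted p = 0.102).

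Cubn (ENSMUSG00000026726, chromosome 2, 13281149 to 13496624, minus strand) had counts of 195, 229 and 252 in WT and 189, 161 and 188 in Dab2-cKO. Its normalized counts were 217, 207 and 215 against 180, 185 and 207, and replicate 3 labelled Dab2-cKO overlapped the WT range. A difference was not detected with TMM (log2 fold change -0.16, SE 0.12, edgeR adjusted p = 0.4). Upper-quartile scaling gave -0.30 (edgeR adjusted p = 0.047) and library size alone -0.59 (edgeR adjusted p = 3.86e-05), both below the median of all genes under the same scaling. An opposite-strand RNA, Gm13270, overlaps 4.93% of the exon bases of Cubn and had 27 to 45 counts.

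In the rest of the LDL receptor family 4 of 13 genes rose and 4 fell, with a median of 0.10. Upper-quartile scaling gave 4 higher and 5 lower (median -0.04), and library size alone 3 and 8 (median -0.33). Lrp1, the widely expressed endocytic receptor of fibroblasts and macrophages, rose by 1.22, from 3102, 3679 and 3243 normalized counts to 7606, 7919 and 7812 (edgeR adjusted p = 1.25e-24). Lrp12 fell by 0.76, from 277 ± 8.44 to 164 ± 24.2 (SD, n = 3), and Lrp8 and Vldlr are described above with Dab1. Of 10 partners and ligands of Lrp2 and Cubn, 4 rose and 1 fell, with a median of 0.56. Tcn2, the carrier of vitamin B12 in blood, rose by 0.98 and Lpl, lipoprotein lipase, by 0.90. Clu, the extracellular chaperone clusterin, fell by 1.13 (from 817 ± 43.7 to 375 ± 3.54, SD, n = 3, edgeR adjusted p = 3e-19). Amn, which anchors Cubn in the membrane, had only 13 to 24 counts per library and was not called (log2 fold change 0.00, SE 0.44).

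Myo6 (ENSMUSG00000033577, chromosome 9, 80072282 to 80219011) was the most abundant member in WT and fell in Dab2-cKO. Its counts were 1584, 2100 and 2010 against 1267, 1029 and 1053, or 1764, 1896 and 1717 against 1208, 1184 and 1162 after normalization. The groups were far apart and tight. Myo6 was 1.51-fold higher in WT, a log2 fold change of -0.60 (SE 0.07, edgeR adjusted p = 4.35e-11). Dab2 and Myo6, adaptor and motor of the same uptake step, thus differed in opposite directions.

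Of 11 cargo adaptors of Myo6, 4 were higher and 2 lower, with a median of 0.17. The split was 1 higher and 2 lower with upper-quartile scaling (median 0.02), and 0 higher and 6 lower with library size alone (median -0.26). Lmtk2, an endosomal kinase that binds Myo6, fell by 0.65 on the log2 scale, and Dlg1, a membrane scaffold, by 0.46 (edgeR adjusted p = 2.43e-10 and 2.54e-07). The rises of Tom1l2, an endosomal adaptor, at 0.43 and of Lrch3, a leucine-rich repeat protein, at 0.35 became -0.0014 and -0.08 with library size alone. Of 22 other unconventional myosins 4 rose, 9 fell and 9 were not called (median -0.21), against 4 higher and 18 lower with library size alone. Myo18b, a myosin of striated muscle, rose by 1.77, from 365 ± 29.6 to 1247 ± 28.4 (SD, n = 3), beside the 6 of 6 skeletal muscle markers, and Myo1f, a myosin of leukocytes, rose by 1.05 beside the 10 of 10 macrophage markers. Myo5a, which carries melanosomes, fell by 0.61 beside the 7 of 7 melanocyte markers, and Myo10, the myosin of filopodia, fell by 0.90. The part of these cell types in the myosin values was not tested.

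Over the 10 lists together 57 of 166 genes tested were higher and 44 lower, or 60.8% called. The share called was 28.2% among all genes tested and 60.5% among those that averaged 100 or more normalized counts. The 166 genes were not cut by level. Some of them averaged under 100, such as Frs3 at 24.6, so neither background matches them. The median of these 166 genes was 0.04.

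**Figure D3:**
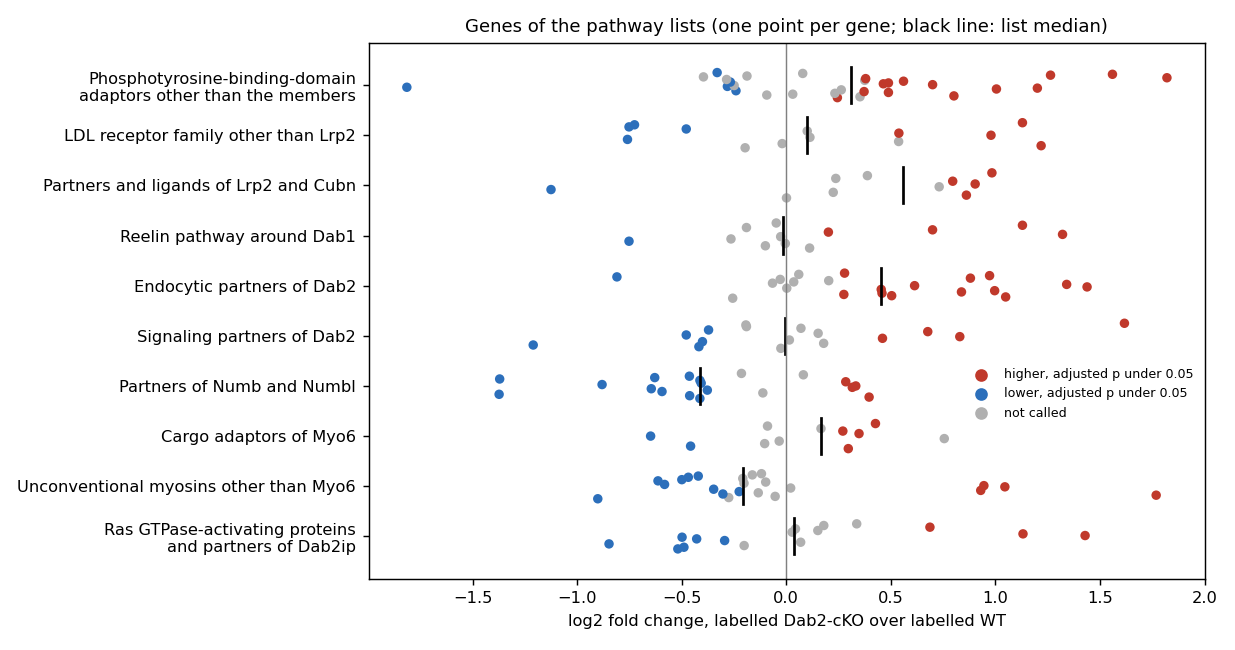
Log2 fold change (horizontal axis, labelled Dab2-cKO over labelled WT) of each gene tested in the 10 lists, with called genes in red (higher) or blue (lower), other genes in grey and the list median as a black line. The medians run from -0.41 for partners of Numb and Numbl to 0.56 for partners and ligands of Lrp2 and Cubn, and with scaling by library size alone the medians of 4 lists turn from above to below 0.

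Levels of the members were compared with each other only per kb of exon. In WT the order was Myo6 at 143 ± 7.40 (normalized counts per kb, SD, n = 3), Numb at 80.7, Dab2ip at 76.6, Dab2 at 29.8 ± 1.40, Lrp2 at 19.3, Numbl at 16.4, Cubn at 14.3 and Dab1 at 11.8. Numb and Dab2ip overlapped between libraries, while the other neighbours in this order did not. In Dab2-cKO the order was Dab2 at 125 ± 6.22, Myo6 at 94.7 ± 1.84, Dab2ip at 89.8, Numb at 59.7, Numbl at 27.4, Dab1 at 22.6, Lrp2 at 15.9 and Cubn at 12.8, with no overlap between neighbours. Dab2 stood below Dab2ip in WT and above all other members in Dab2-cKO, and among 19501 protein-coding genes from the percentile 63.4 to 91.9. The genes of skin-foreign receptors had a median of 4.94 per kb in WT and 4.84 in Dab2-cKO. Of the members, 7 in WT and 8 in Dab2-cKO exceeded their 95th percentile (12.4 and 11.8), and Cubn in both groups and Dab1 in WT were the members closest to it. The lower part of the order depends on the length used. With the longest transcript in place of all exons, Dab1 in WT stood at 21.5 ± 2.69 (SD, n = 3), with Lrp2 at 20.9, Cubn at 18.9 and Numbl at 16.7, and in Dab2-cKO Dab1 at 41.1 stood above Numbl at 27.9. By that length all 8 exceeded the percentile in both groups, and Dab2 stood at 51.1 in WT and 215 in Dab2-cKO, in the same places as before.

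**Figure D4:**
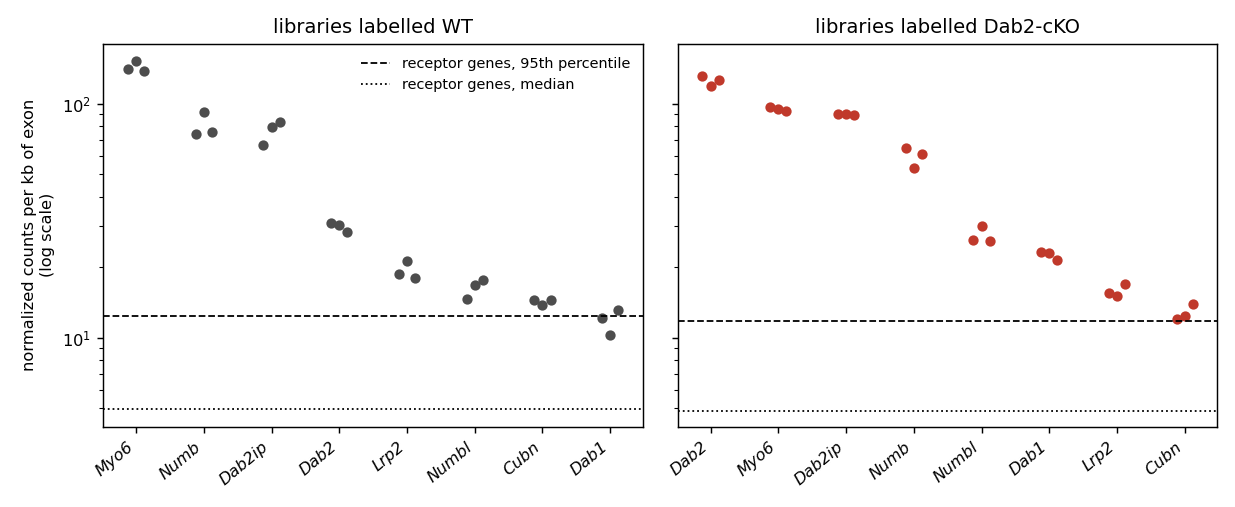
Normalized counts per kb of exon (log axis) of the 8 genes, ordered by their mean, in the libraries labelled WT and labelled Dab2-cKO, each point a library. Dashed and dotted lines give the 95th percentile and the median of 1521 chemosensory receptor genes, and Dab2 stands at 29.8 in WT, below Dab2ip, and at 125 in Dab2-cKO, above Myo6.

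Upper-quartile scaling and library size alone moved all 8 genes down together, whereas DESeq2 left them close to their TMM values. Scaling by library size reversed Dab2ip and no other member. The log2 fold change of Dab2 was 2.08 with TMM, 2.08 with DESeq2, 1.93 with upper-quartile scaling and 1.65 with library size alone. With each library left out in turn it was 2.03 to 2.11. Across the same alternatives Dab1, Numb, Numbl and Myo6 also kept their direction and their call.

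**Figure D5:**
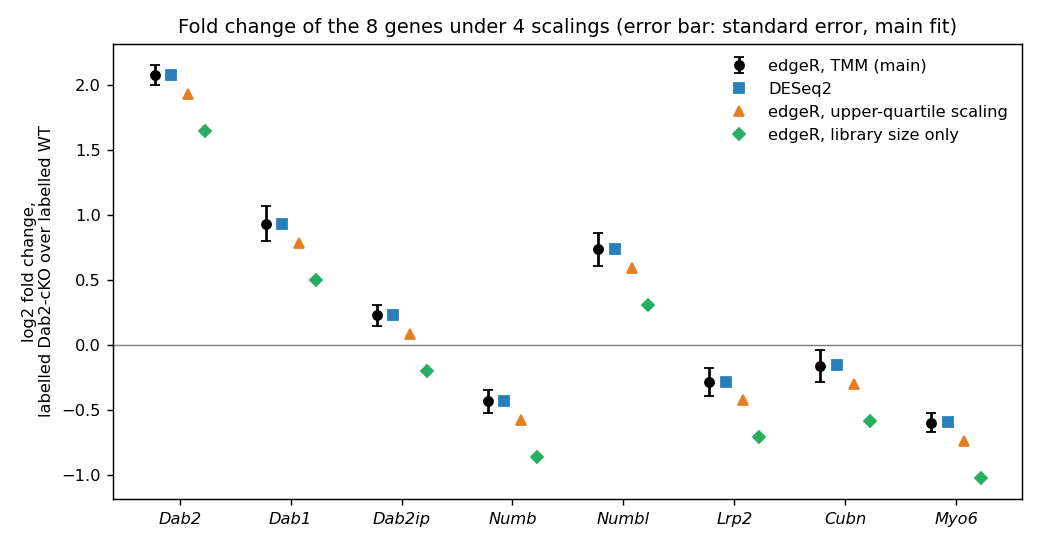
Log2 fold change (labelled Dab2-cKO over labelled WT) of the 8 genes under 4 scalings, with the standard error on the values from TMM. Values fall from TMM to library size alone, Dab2 from 2.08 to 1.65, and those of Dab2ip cross 0, from 0.23 to -0.20.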

How the data were processed

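Total RNA of sorted HFSCs was sequenced from 3 libraries labelled WT and 3 labelled Dab2-cKO. Per the study's methods and the processing notes, the authors checked reads with FastQC 0.11.9, trimmed them with fastp 0.23.4, aligned them to GRCm39 with HISAT2 2.2.1, sorted with SAMtools 1.6 and counted them per gene with featureCounts 2.0.6. The deposited counts are whole numbers without normalization. A further deposited table holds fold changes, p-values and scaled counts of the authors' own comparison by DESeq2 1.42.0, and none of its values were used. The strand setting, treatment of reads with several positions, use of molecular identifiers and annotation release are not given in the sources used here.

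Counts were filtered by edgeR 4.0.16 (R 4.3.3) at its default expression filter, scaled by TMM and tested by quasi-likelihood with robust dispersions and Benjamini-Hochberg adjustment over 32149 genes, called at an adjusted p under 0.05. The scripts were tested on simulated data. The standard error is the log2 fold change divided by the square root of the test's F. The 6770 rows without a gene name (7.90% to 15.3% of counts) were kept by gene ID. Positions, exon lengths and overlaps came from GENCODE vM39 and promoter windows from RefSeq on GRCm38.p6. Libraries of a group differed by more than sampling noise (chi-square per degree of freedom 4.83 to 22.2), so none was counted as a duplicate.

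Named were the 8 members, in each of 10 lists the called genes with the 2 strongest rises and 2 strongest falls, if they averaged 100 or more normalized counts and their groups did not overlap, the 3 genes with the pattern nearest to Dab2, and Cd34, Itga6 and Krt14. Lhx2, Sox9, Nfatc1, Krt15, Krt5, Papln, Gm13270, Amn, Notch1, Notch2, Notch3, Fyn, Src and Yes1 were added after their values were seen. The members and lists were chosen with earlier results of these data known. Apbb3 and Krt85 were not analysed here. Alternatives were DESeq2 1.42.0, upper-quartile scaling, library size alone, TMM factors without mitochondrial and the 100 most abundant genes, no filter, a filter at 50 counts on average, the replicate number as a block, and each library left out. The direction of lists under each scaling and the neighbours of Dab2 were added after seeing the data.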

Additional observations from a re-analysis of the deposited data

How the results depend on the processing

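Dab2, Dab1, Numb, Numbl and Myo6 kept their direction and call under all 13 alternatives. Dab2ip lost its call under 8 and reversed to -0.20 (edgeR adjusted p = 0.0151) with library size alone, where the median of all genes was -0.45. Lrp2 lost its call under 4, and Cubn was called under upper-quartile scaling and library size alone. DESeq2 called 5 members instead of 7, and 7586 of the 26267 genes to which it gave an adjusted p. With TMM in edgeR, genes called numbered 9069 of 32149 (5387 higher, 3682 lower), with 59.4% of calls higher. With library size alone they were 13854 (2686 higher, 11168 lower), 19.4% higher, and the calls of the reelin, signaling and myosin lists rose to 12, 14 and 22 from 5, 9 and 13. With upper-quartile scaling 5561 genes were lower, 43.5% of calls were higher, and 3 cargo adaptors of Myo6 were called instead of 6. These scalings differ in the library factors alone. Per-kb levels depend on the length used. The 3 libraries per group limit small changes: for Dab1, Numbl and Cubn, at 104 to 261 normalized counts, the standard errors were 0.12 to 0.13.

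Correlations of deviations between same-numbered libraries were 0.07, -0.01 and 0.06 for numbers 1 to 3, and those of other pairs -0.10 to 0.05. These small values cannot show whether same-numbered libraries were handled together. With the replicate block Dab2 was at 2.07 on the log2 scale and 8967 genes were called, and the block changed no call of a member.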

Other observations

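The genes on both sides of Dab2 on chromosome 15 of GRCm39 were listed after seeing its value, taking the 5 nearest protein-coding genes in each direction. On the side of higher coordinates the nearest was C9, a complement component, 4.60 kb away, with normalized counts of 28.9, 28.0 and 15.4 in the libraries labelled WT and 28.6, 19.6 and 23.2 in those labelled Dab2-cKO, and it was not called (log2 fold change 0.00, edgeR adjusted p = 0.998). Fyb1, an adaptor of T cells and other leukocytes, lay 82.1 kb away and was higher in Dab2-cKO by 1.75 on the log2 scale (from 136 ± 24.7 to 454 ± 17.5, SD, n = 3). Rictor, 268 kb away, was not called (-0.15), while the cytokine receptor genes Osmr and Lifr, 373 and 650 kb away, were higher by 1.00 and 1.70. On the side of lower coordinates no such gene lay within 1056 kb. Beyond that distance Ptger4 was lower (-0.33), Prkaa1 was not called (-0.22), and Ttc33, Rpl37 and Card6 were higher (0.66, 0.33 and 0.47). The edgeR adjusted p-values of Fyb1, Osmr and Lifr were 1.5e-21, 6.49e-15 and 1.01e-30.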
